A study of Mus musculus with 10 samples.

Results

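Genes whose products make, break down or relay the second messengers cAMP and calcium, or switch off G proteins, were examined for binding of estrogen receptor α (ERα) in the arcuate nucleus and the anteroventral periventricular nucleus (AVPV) of the female mouse hypothalamus. They were taken by symbol from the RefSeq annotation of the mm10 genome: adenylyl cyclases (Adcy), cyclic nucleotide phosphodiesterases (Pde), the protein kinase genes Prka, Prkc and Prkg, phospholipases C (Plc), calcium/calmodulin-dependent kinase genes (Camk) and regulators of G-protein signalling (Rgs). The rule gave 109 of 21774 protein-coding genes, or 0.501%. By symbol it also took genes of other function. These were the 7 subunits of AMP-activated kinase, Prkcsh (a subunit of glucosidase II) and Camkmt (a methyltransferase that acts on calmodulin). Others were the kinase inhibitors Camk2n1 and Camk2n2 and the binding proteins Rgs7bp and Rgs9bp. The Pde6 genes, named for the photoreceptor phosphodiesterase, were counted with the phosphodiesterases.

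ERα was mapped by chromatin immunoprecipitation and sequencing (ChIP-seq), with 4 libraries from each nucleus and an input library of each that has no list of peaks here. All tissue came from ovariectomised female C57BL/6 mice that carried a 2 cm estradiol implant at 0.1 mg/mL in sesame oil, were injected a week later with estradiol benzoate at 0.05 mg/kg, and were dissected 28 h after the injection. The chromatin was pooled, and no source states that each library had animals of its own, so that spreads and p-values below are over libraries, which may be technical. Both groups received estradiol, and no vehicle-treated list was analysed here. Whole dissected nuclei were used, and peak lists hold no expression, so that neither the cell types in the tissue nor its labels could be checked against marker genes, and fewer cells with the receptor cannot be told apart from less binding per cell.

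Hormone and neurotransmitter receptors coupled to Gs or Gi raise or lower cAMP through adenylyl cyclases, and phosphodiesterases break it down. cAMP acts largely through protein kinase A, which phosphorylates channels, receptors and the transcription factor CREB. Receptors coupled to Gq act through phospholipase C, whose products release calcium from internal stores and activate protein kinase C, while calcium bound to calmodulin activates the CaM kinases. RGS proteins speed the hydrolysis of GTP by Gα subunits and so shorten the signal. ERα, the product of Esr1, binds the estrogen response element, an inverted repeat of GGTCA and TGACC with a spacer of any 3 bases between them, written GGTCANNNTGACC.

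Peaks from the 8 lists that overlapped by 1 base or more were merged into regions, and each region was assigned to the gene whose start site was nearest to its centre. Of 8072 regions, 79 were assigned to a member, 42 of them with a peak in at least 2 libraries and 37 in 1 library. The sequences below are 50 bases on either side of the highest summit, lengthened where needed to hold the element, on the + strand of GRCm38 (mm10), with the best match to the response element in capitals where one lay within 100 bp of the summit and differed at no more than 2 of the 10 fixed positions. The first set shows the 9 member regions that had a peak in all 8 libraries.
Prkce, chr17:86264010-86264110: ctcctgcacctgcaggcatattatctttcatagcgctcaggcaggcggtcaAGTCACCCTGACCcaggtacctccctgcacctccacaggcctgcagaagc
Plcg2, chr8:117434165-117434265: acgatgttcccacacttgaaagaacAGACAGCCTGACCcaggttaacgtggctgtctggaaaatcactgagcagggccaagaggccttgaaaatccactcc
Camk2b, chr11:6015059-6015159: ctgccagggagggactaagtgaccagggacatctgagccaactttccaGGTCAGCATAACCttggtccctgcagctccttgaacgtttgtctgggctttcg
Camk2b, chr11:6119117-6119217: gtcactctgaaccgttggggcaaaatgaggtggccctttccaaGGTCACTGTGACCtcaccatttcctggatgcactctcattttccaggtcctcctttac
Camk2d, chr3:126723682-126723782: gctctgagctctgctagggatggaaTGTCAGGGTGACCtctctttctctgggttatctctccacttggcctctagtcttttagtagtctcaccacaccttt
Rgs7, chr1:175446211-175446311: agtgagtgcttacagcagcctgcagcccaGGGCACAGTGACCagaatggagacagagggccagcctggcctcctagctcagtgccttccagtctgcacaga
Pde7b, chr10:20529194-20529294: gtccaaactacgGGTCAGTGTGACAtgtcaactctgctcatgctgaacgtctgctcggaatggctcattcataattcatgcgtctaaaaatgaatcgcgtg
Prkacb, chr3:146813090-146813190: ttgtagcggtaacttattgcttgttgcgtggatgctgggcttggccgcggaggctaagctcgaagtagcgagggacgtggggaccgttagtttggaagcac
Prkab1, chr5:116024393-116024493: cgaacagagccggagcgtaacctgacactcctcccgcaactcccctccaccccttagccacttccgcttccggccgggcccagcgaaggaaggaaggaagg

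The second of the Camk2b regions had 0 mismatches, the Plcg2 region had 2, and the first Camk2b region and those of Prkce, Camk2d, Rgs7 and Pde7b had 1. The regions of Prkacb and Prkab1, whose centres lay 0.262 and 0.137 kb from the start sites, held no match, and no capitals are shown in them. The second set shows the regions with a peak in all 4 libraries of 1 nucleus and in no library of the other. Those of Pde4d, Prkab2 and Rgs9 were arcuate and those of Plcb4 and Rgs18 were AVPV.
Pde4d, chr13:108648070-108648170: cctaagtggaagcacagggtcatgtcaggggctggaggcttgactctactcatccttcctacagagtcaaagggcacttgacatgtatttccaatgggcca
Prkab2, chr3:97711091-97711191: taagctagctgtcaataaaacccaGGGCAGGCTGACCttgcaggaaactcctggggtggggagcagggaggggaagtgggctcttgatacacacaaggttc
Rgs9, chr11:109179327-109179427: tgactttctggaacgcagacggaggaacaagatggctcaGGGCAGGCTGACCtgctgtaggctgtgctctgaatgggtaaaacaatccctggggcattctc
Plcb4, chr2:135431754-135431881: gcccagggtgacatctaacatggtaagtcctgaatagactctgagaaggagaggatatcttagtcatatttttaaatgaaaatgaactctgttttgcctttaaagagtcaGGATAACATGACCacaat
Rgs18, chr1:144894627-144894727: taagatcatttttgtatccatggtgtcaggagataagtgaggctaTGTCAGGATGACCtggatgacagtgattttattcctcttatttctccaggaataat

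The Pde4d region held no match, that of Plcb4 had 2 mismatches and those of Prkab2, Rgs9 and Rgs18 had 1. The elements at Prkab2 and Rgs9 were spelled with the same letters. The last set gives the other regions, among the 42, whose element had 0 mismatches.
Plcb1, chr2:135200424-135200524: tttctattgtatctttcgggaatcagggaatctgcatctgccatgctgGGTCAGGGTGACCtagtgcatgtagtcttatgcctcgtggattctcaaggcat
Rgs3, chr4:62722048-62722148: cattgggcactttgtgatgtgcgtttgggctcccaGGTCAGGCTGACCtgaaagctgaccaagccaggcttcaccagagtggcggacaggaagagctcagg
Rgs9, chr11:109163107-109163234: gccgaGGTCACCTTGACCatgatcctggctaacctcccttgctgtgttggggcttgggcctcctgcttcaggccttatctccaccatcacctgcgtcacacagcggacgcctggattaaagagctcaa

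A gene was counted as bound in a library when its start site was the nearest to at least 1 peak centre, first at any distance and then within 20 kb. The lists held between 2367 and 4079 peaks, and the files give no read depth behind them, so that a gene without a peak is not shown to be unbound. At any distance, 26, 21, 20 and 19 members were bound in arcuate libraries 1 to 4 and 12, 16, 16 and 19 in AVPV libraries 1 to 4. The mean was 21.5 ± 3.11 members in the arcuate nucleus and 15.8 ± 2.87 in the AVPV (SD, n = 4 each), and the groups met at 19. The arcuate lists were longer, with 3667 ± 376 peaks against 2829 ± 454 (SD, n = 4 each), and over all genes 2939 ± 227 were bound in the arcuate nucleus and 2375 ± 342 in the AVPV. Members made up 0.731% ± 0.0800 of the bound genes in arcuate libraries and 0.666% ± 0.104 in AVPV libraries (SD, n = 4 each), with overlapping ranges. When each list was cut to its strongest peaks so that all had the same length, the means were 14.5 in the arcuate nucleus and 14 in the AVPV. No test was made over the members, since they were chosen with earlier results of these data known.

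**Figure D1:**
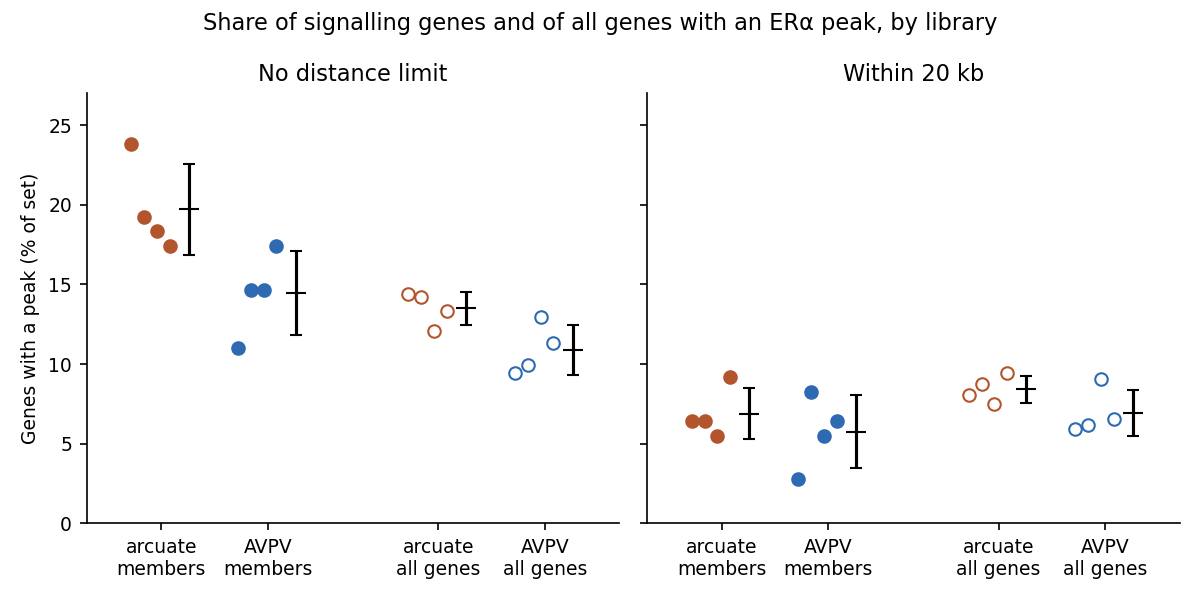
Share of the 109 members (filled points) and of all 21774 protein-coding genes (open points) with an ERα peak in each library, in percent of the set, at any distance (left) and within 20 kb (right). Bars give the mean ± SD of 4 libraries. At any distance the arcuate libraries held a peak for 17.4% to 23.9% of members and 12.1% to 14.4% of all genes, and within 20 kb for 5.50% to 9.17% of members and 7.46% to 9.41% of all genes.

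Within 20 kb the members no longer stood above the genome. There, 7, 7, 6 and 10 members were bound in the arcuate libraries and 3, 9, 6 and 7 in the AVPV libraries, with means of 7.5 ± 1.73 and 6.25 ± 2.5 (SD, n = 4 each). These are 6.88% and 5.73% of the members, beside 8.41% and 6.91% of all genes. At any distance the same shares were 19.7% and 14.4% of members beside 13.5% and 10.9% of all genes.

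Over the 8 libraries, 40 members (36.7%, Wilson 95% interval 28.2 to 46.1) had a peak in at least 1, where 25.5% of all protein-coding genes did. At least 2 of the 4 arcuate libraries held a peak for 22 members (20.2%), beside 14.2% of all genes, and at least 2 of the 4 AVPV libraries for 15 members (13.8%), beside 11.5%. In all 8 libraries 9 members (8.26%) were bound, beside 4.83%. Within 20 kb these counts were 19 (17.4%), beside 17.0%, then 7 (6.42%), beside 8.60%, and 5 (4.59%), beside 7.17%, with 3 members (2.75%) bound in all 8 libraries beside 3.02%. Intervals cover counting error only.

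Members lay in wide stretches of the genome. The span of genome closer to the start sites of a gene than to those of any other gene had a median of 113 kb for members and 49.2 kb for all genes. When genes were divided into 4 sets of equal size by this span, 52 members fell in the widest, and 29 of these (55.8%) were bound in at least 1 library, beside 43.6% of the 5444 genes there. In the next set 6 of 30 members (20%) were bound, beside 23.6%, and in the lower sets 3 of 14 (21.4%), beside 18.6%, and 2 of 13 (15.4%), beside 16.2%. Within 20 kb, 10 of the 52 members of the widest set (19.2%) were bound, beside 16.4%.

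The regions themselves were far from start sites. Of the 42 member regions seen in at least 2 libraries, 9 (21.4%, Wilson 95% interval 11.7 to 35.9) lay within 20 kb of the nearest start site, beside 51.0% of all 4722 such regions. Promoters, taken from 1 kb before a start site to 100 bp past it, held 3 of them (7.14%, 2.46 to 19), beside 27.6%. Introns held 26 (61.9%, 46.8 to 75), beside 32.1%, and 11 (26.2%) were intergenic, beside 32.1%. In single libraries the median distance of a member peak ran from 46.3 to 73.5 kb, and that of all peaks from 0.693 to 26.2 kb. Ranked by fold enrichment within a list, the median member peak stood between percentile 37.3 and 58.5, near the middle of each list. Arcuate library 4 and AVPV library 3 stood apart from the others, with 64.0% and 63.1% of all their peaks within 20 kb, against 45.9% to 56.1% in the other libraries. Without these libraries the mean number of members bound at any distance was 22.3 in the arcuate nucleus and 15.7 in the AVPV, and 36 members (33.0%) were bound in at least 1 of the 6 left, beside 21.5% of all genes.

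**Figure D2:**
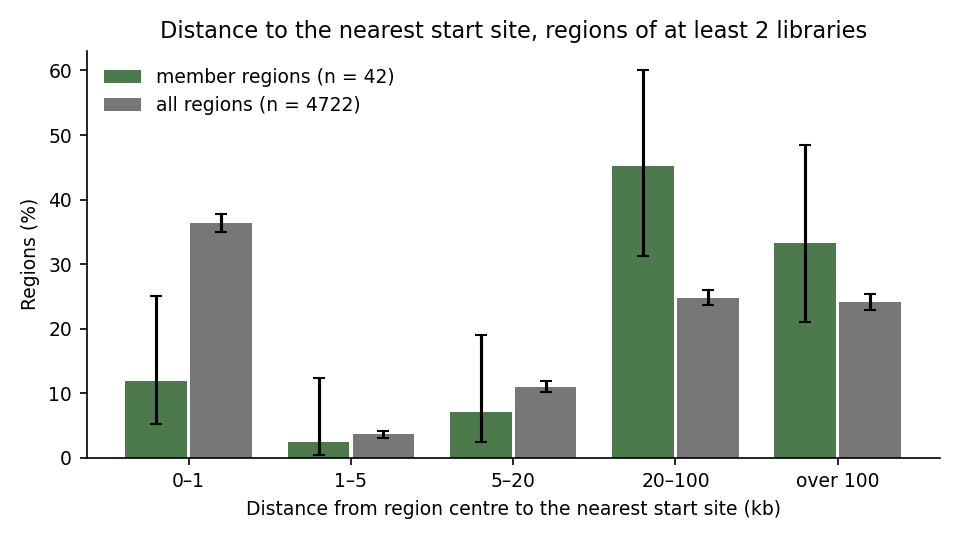
Distance in kb from the centre of a region to the nearest protein-coding start site, as percent of regions with a peak in at least 2 libraries, for the 42 member regions and all 4722 regions. Error bars are Wilson 95% intervals. Up to 1 kb from a start site lay 11.9% of member regions and 36.4% of all regions, and from 20 to 100 kb lay 45.2% and 24.8%.

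The response element was frequent at these regions. Counting either strand, which is the same for this palindrome, 34 of the 42 member regions (81.0%, Wilson 95% interval 66.7 to 90) held the element with at most 2 mismatches, beside 55.5% of all regions. Outside promoters, where most member regions lay, the shares were 33 of 39 (84.6%, 70.3 to 92.8) and 71.7%. With at most 1 mismatch, 26 member regions (61.9%) and 31.8% of all regions held it, and with 0 mismatches 4 (9.52%) and 9.00%. Outside promoters the member shares were 66.7% at 1 mismatch, beside 42.6%, and 10.3% at 0 mismatches, beside 12.2%. In windows of the same length moved by 5 kb, 5 of 42 (11.9%) held it at 2 mismatches, beside 6.82%. The cAMP response element TGACGTCA, to which CREB binds, was in none of the 42 windows (Wilson 95% interval 0 to 8.38%), beside 0.402% of all regions, and the AP-1 element TGANTCA, read on both strands, was in 1 (2.38%), beside 6.48%. A match of letters is a description and was not tested for binding.

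By subfamily, at any distance, a peak in at least 1 library was seen for 4 of 10 adenylyl cyclases (40%), 7 of 24 phosphodiesterases (29.2%), 1 of 6 protein kinase A genes (16.7%), 3 of 7 AMP-activated kinase genes (42.9%), 4 of 13 phospholipases C (30.8%), 4 of 9 protein kinase C genes (44.4%), 7 of 14 CaM kinase genes (50%) and 10 of 23 RGS genes (43.5%), beside the 25.5% of all genes. Neither protein kinase G gene nor Prkcsh had a peak. Within 20 kb the CaM kinase genes stood at 3 of 14 (21.4%) and the RGS genes at 3 of 23 (13.0%), beside 17.0% of all genes. At any distance, at least 2 of the 4 arcuate libraries held a peak for 21.4% and 21.7% of these, beside 14.2% of all genes. For at least 2 of the 4 AVPV libraries the shares were 14.3% and 13.0%, beside 11.5%. With so few genes in each, the intervals of the subfamilies overlapped one another widely. Between the nuclei, 4.75 ± 1.5 RGS genes were bound per arcuate library and 3 ± 0.816 per AVPV library, and 3.75 ± 0.5 and 2 ± 0.816 phosphodiesterases (SD, n = 4 each). The arcuate lists were longer, and over all genes the means were 13.5% and 10.9%. Adenylyl cyclases, AMP-activated kinase and CaM kinase genes also had higher arcuate means. Phospholipases C averaged 2.75 in both nuclei, and protein kinase C genes 1.75 in the arcuate nucleus and 2 in the AVPV. Within 20 kb the RGS means were 0.5 in the arcuate nucleus and 1 in the AVPV. In every subfamily the ranges of the nuclei overlapped.

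**Figure D3:**
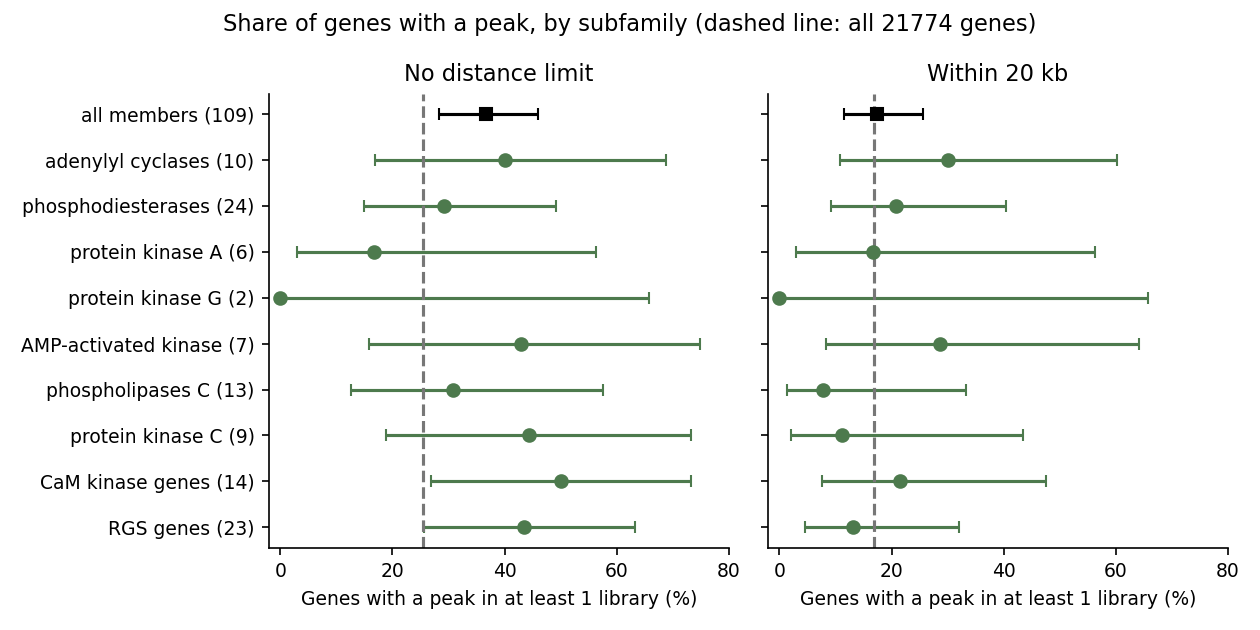
Percent of each subfamily with an ERα peak in at least 1 of 8 libraries, at any distance (left) and within 20 kb (right), with the number of genes in brackets. Bars are Wilson 95% intervals and the dashed lines mark all 21774 genes, at 25.5% and 17.0%. At any distance all members stood at 36.7%, and within 20 kb at 17.4%, on the line.

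Among the adenylyl cyclases, which make cAMP from ATP, Adcy5 was bound in all 8 libraries and the others in fewer. A region in its intron, 66.9 kb downstream of the start site at chr16:35221636-35221960, had a fold enrichment over background of 7.18, 8.61, 7.17 and 5.05 in arcuate libraries 1 to 4 and of 5.11 in AVPV library 4, with no peak in the other AVPV libraries. A further intronic region, 79.8 kb downstream at chr16:35234422-35234857, had 4.62, 5.52 and 4.56 in arcuate libraries 1 to 3, 6.80, 8.45 and 10.8 in AVPV libraries 1, 3 and 4, and no peak in the remaining libraries. The first region was thus called mostly in the arcuate nucleus, and the other in 3 libraries of each nucleus. AVPV library 2 had a peak at neither, and was counted through a peak at the promoter, 0.576 kb upstream (4.28). Adcy9, a broadly expressed cyclase, had an intronic region 0.877 kb past an internal start site, 17.6 kb into the gene from its 5′ end, in arcuate libraries 1, 2 and 3 (4.88, 7.09 and 6.84) and in no AVPV library. Adcy8, which calcium and calmodulin stimulate, had a peak in 2 arcuate libraries and Adcy7 a promoter peak with an exact response element in AVPV library 2. No peak was assigned to Adcy1, Adcy2, Adcy3, Adcy4, Adcy6 or Adcy10.

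Of the phosphodiesterases, Pde7b and Pde4d, both specific for cAMP, gave different pictures. Pde7b had an intronic region 19.1 kb past an internal start site and 196 kb from the 5′ end of the gene, at chr10:20528847-20529518, with fold enrichments of 7.18, 12.1, 7.82 and 7.21 in the arcuate libraries and 6.01, 6.07, 9.70 and 9.65 in the AVPV libraries. These values overlapped between the nuclei. Pde4d had a region 6.01 kb upstream of a start site, at chr13:108647956-108648386, with 5.90, 6.46, 8.14 and 5.05 in the arcuate libraries and no peak in the AVPV libraries. A further 4 regions, all in its introns, had peaks in 1 or 2 arcuate libraries. Pde4d was the only member that passed the per-gene test under both distance rules (exact two-sided permutation test over 70 assignments, p = 0.0286, the smallest this design allows, adjusted p = 1.00).

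Fewer libraries held peaks at the other phosphodiesterases. Pde10a, which splits both cyclic nucleotides and is best known from the striatum, had a pair of intronic regions, 93.9 and 107 kb downstream, in arcuate libraries 1 to 3 (7.95, 6.04 and 8.47, then 8.21, 6.73 and 7.62), which arcuate library 4 and the AVPV libraries lacked. Its only AVPV peak lay just under 20 kb upstream, in library 3 (5.11). Pde1c, which calmodulin stimulates, was bound in 3 libraries, Pde9a in 2, and Pde1b and Pde2a in 1 each. The other 17, among them Pde3a, Pde3b, Pde4a, Pde4b and all 6 Pde6 genes, had no peak assigned.

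Prkacb, the β catalytic subunit of protein kinase A, carried the strongest promoter region of the members. Its centre lay 0.262 kb upstream of the start site, at chr3:146812929-146813487, with fold enrichments of 7.04, 9.56, 8.68 and 16.2 in the arcuate libraries and 9.50, 13.4, 13.1 and 7.42 in the AVPV libraries. The nuclei overlapped fully. No other protein kinase A gene had a peak assigned, neither the α catalytic subunit Prkaca nor the regulatory subunits Prkar1a, Prkar1b, Prkar2a and Prkar2b.

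The AMP-activated kinase, a sensor of cellular energy and no part of the cAMP pathway by function, was bound at both genes of its β subunit. Prkab1 had a region 0.137 kb downstream of its start site, at chr5:116023883-116024699, with fold enrichments of 10.3, 11.3, 8.55 and 8.81 in the arcuate libraries and 8.81, 8.42, 9.92 and 7.07 in the AVPV libraries. Prkab2 was assigned a region 52.9 kb from its start site, at chr3:97710852-97711340, with 6.16, 8.41, 6.51 and 5.41 in the arcuate libraries and no peak in the AVPV. The latter lay in an intron of Pde4dip, which encodes an anchor of phosphodiesterase 4D, so that the nearest start site and the surrounding gene differed. Prkag2 had a peak in 1 library of each nucleus.

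Phospholipase C genes were bound at a distance only, apart from a peak in 1 library near the start of Plcb1. Plcg2, the form that tyrosine kinases activate in immune cells, was assigned a region 64.2 kb upstream of its start site in an intron of Cmip, at chr8:117433719-117434531. Its fold enrichments were 23.1, 18.3, 19.9 and 21.3 in the arcuate libraries and 9.68, 12.1, 20.3 and 19.6 in the AVPV libraries. On this scale, which depends on the depth of a library, AVPV libraries 1 and 2 were low, while AVPV 3 and 4 lay among the arcuate values. By rank within each list the region stood at percentile 96.5 to 97.7 in the arcuate libraries. In the AVPV libraries it stood at 76.9 to 95.9, so that the ranks did not overlap. Plcb4 and Plcb1, both activated by Gq, are neighbours on chromosome 2. A region in an intron of Plcb1 at chr2:135431458-135432038, nearest to the start site of Plcb4 at 228 kb, had peaks in all 4 AVPV libraries (6.28, 5.78, 5.95 and 9.08) and in no arcuate library. Another, 82.8 kb upstream of Plcb4 in intergenic sequence, was called in arcuate libraries 1 to 3 (4.12, 4.64 and 4.58) and in no AVPV library. The Plcb1 region with an exact element, 414 kb into the gene, was called in arcuate library 2 (7.26) and AVPV libraries 3 and 4 (6.64 and 5.41). Plch1 had a region in 1 library of each nucleus, and Plcb2, Plcb3, Plcd1, Plcd3, Plcd4, Plce1, Plcg1, Plch2 and Plcz1 had no peak assigned.

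Protein kinase C ε, encoded by Prkce and independent of calcium, had the highest enrichment of any member region in each library but arcuate library 4. The region lay in an intron 96.4 kb downstream of the start site, at chr17:86263752-86264528, with fold enrichments of 27.5, 31.8, 28.9 and 19.5 in the arcuate libraries and 25.6, 27.2, 22.2 and 24.0 in the AVPV libraries. In arcuate library 4 Plcg2 was higher, at 21.3. By rank within each list the Prkce region stood between percentile 96.4 and 99.2. A weaker intronic region 243 kb downstream was called in 3 arcuate libraries (4.88, 4.57 and 4.69) and 1 AVPV library (3.50). Prkca, a calcium-dependent form, had separate regions in 2 arcuate and in 2 AVPV libraries, Prkcq a peak in 1 library of each nucleus and Prkci in 1 AVPV library. Prkcb, Prkcd, Prkch and Prkcz had none.

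Camk2b, the β subunit of CaM kinase II, had more regions in at least 2 libraries than any other member, with 4. The strongest lay in an intron 50.7 kb downstream of the start site, at chr11:6014607-6015527, with fold enrichments of 15.8, 18.7, 16.6 and 15.5 in the arcuate libraries and 10.2, 8.67, 7.51 and 13.3 in the AVPV libraries. Every arcuate value was above every AVPV value. A neighbour at chr11:6012477-6012957, 53.0 kb downstream, had 7.20, 12.9, 7.62 and 7.94 in the arcuate libraries and 4.18 and 2.84 in AVPV libraries 3 and 4. Another intronic region, 30.6 kb downstream, was called in arcuate libraries 1 to 3 only (4.98, 4.43 and 4.39). The region with the exact element, 53.4 kb upstream in an intron of Nudcd3, had 9.37, 9.70, 6.82 and 6.19 in the arcuate libraries and 9.04, 4.73, 5.96 and 7.49 in the AVPV libraries, which overlapped.

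Camk2d, the δ subunit, had an intronic region 127 kb downstream, at chr3:126723452-126723946, with 10, 8.14, 7.17 and 9.02 in the arcuate libraries and 5.04, 7.72, 5.03 and 6.49 in the AVPV libraries. Only AVPV library 2 reached the arcuate range. Its promoter region was called in arcuate libraries 1 and 2 (6.41 and 4.04) and AVPV libraries 2, 3 and 4 (5.20, 7.51 and 3.41). Camkmt was bound in 2 arcuate libraries, and Camk1, Camk1d, Camk1g and Camk2n2 in 1 library each. Camk2a, Camk2g, Camk2n1, Camk4, Camkk1, Camkk2 and Camkv had no peak assigned.

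Among the RGS genes, Rgs7, a regulator that works in a complex with Gβ5, was bound in all 8 libraries. Its stronger region lay in an intron 46.3 kb downstream, at chr1:175445938-175446589, with fold enrichments of 14.4, 13.9, 12.9 and 8.81 in the arcuate libraries and 5.64, 8.43, 7.34 and 9.77 in the AVPV libraries. Arcuate library 4 fell below AVPV library 4 on this scale. A weaker region 77.0 kb downstream was called in arcuate libraries 1 and 3 (6.67 and 4.89) and in all AVPV libraries (6.54, 5.36, 4.54 and 5.39), and it was the 1 region of the 42 that held the AP-1 element.

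Rgs9, a relative of Rgs7 known from photoreceptors and the striatum, and Rgs3 were bound in all 4 arcuate libraries and in no AVPV library. The Rgs9 region 119 kb downstream of its start site, past the end of the gene at chr11:109179203-109179451, had 5.64, 5.38, 5.86 and 6.13 in the arcuate libraries. A further region with an exact element, 135 kb downstream, was called in arcuate libraries 1 and 2 (5.39 and 4.84). For Rgs3, measured from an internal start site, no single region was in all 4 arcuate libraries: that with an exact element, 48.1 kb downstream, was called in libraries 1 to 3 (4.46, 4.38 and 5.02) and another, 80.9 kb downstream, in libraries 2 to 4 (4.57, 5.54 and 5.05). Rgs18, a regulator of blood cells and platelets, was assigned an intergenic region 119 kb upstream, at chr1:144894549-144894843, in all AVPV libraries (5.75, 7.80, 5.32 and 8.51) and in no arcuate library. It was still not counted as AVPV alone, because other peaks, 372 and 739 kb upstream, were nearest to it in arcuate library 1.

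The remaining RGS genes had weak or few peaks. Rgs16, which cells induce on activation, had a region 2.79 kb upstream in AVPV libraries 2 and 3, Rgs19 had a promoter region in arcuate libraries 3 and 4 and AVPV library 2 (4.87, 5.33 and 3.61), Rgs6 was bound in 2 arcuate libraries, and Rgs1, Rgs4 and Rgs13 in 1 library each. No peak was assigned to the other 13, Rgs2, Rgs5, Rgs8, Rgs10 and Rgs12 among them.

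**Figure D4:**
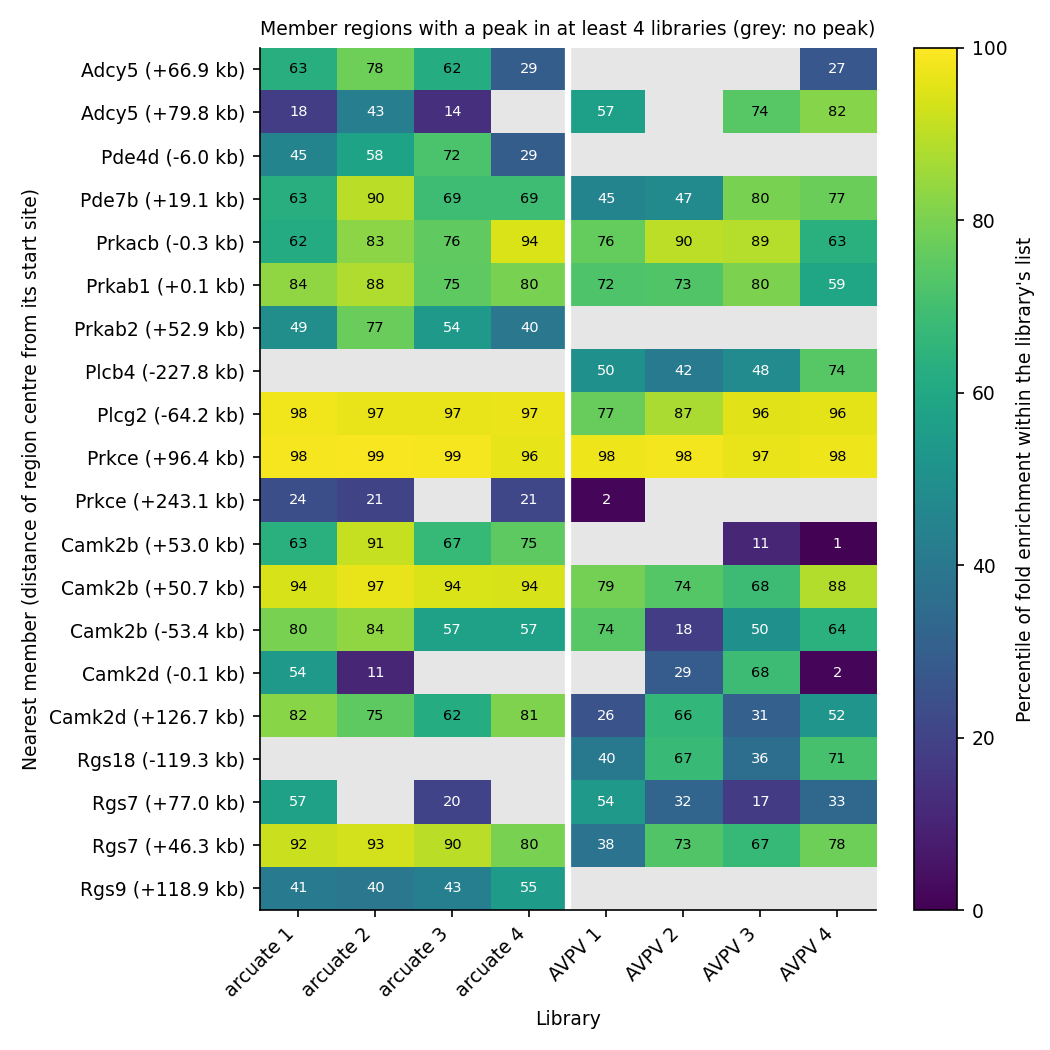
Rank of the 20 member regions that had a peak in at least 4 libraries, as the percentile of fold enrichment within each library's list (colour and number), with libraries as columns and the distance from the nearest start site in kb beside each gene, where + is downstream. Grey cells had no peak. The Prkce region 96.4 kb downstream stood at 96.4 or above in every library, and the regions of Pde4d, Prkab2 and Rgs9 had no peak in the AVPV.

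To ask which genes differed between the nuclei, the number of libraries with a peak was compared for each of the 21774 genes. In this test p falls under 0.05 only when all 4 libraries of 1 nucleus and none of the other hold a peak. At any distance 4 members, Pde4d, Prkab2, Rgs3 and Rgs9, met this in the arcuate direction, or 3.67% of members beside 0.556% of all genes. None met it in the AVPV direction, beside 0.124%. Within 20 kb only Pde4d did (0.917%), beside 0.220%, and again none in the AVPV direction, beside 0.0735%. Each had p = 0.0286 and an adjusted p of 1.00 (exact two-sided permutation test, Benjamini-Hochberg over all genes), so that no call held after correction. The span of genome nearest to the start sites was 982 kb for Pde4d, 69.5 kb for Prkab2, 277 kb for Rgs3 and 221 kb for Rgs9. The median over all genes was 49.2 kb. The share of calls was not taken among genes of like span.

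A gene with a peak in all 4 libraries of 1 nucleus and none of the other keeps its call whichever library is left out. Leaving 1 library out could thus not remove the 4 genes and could only add others. Without arcuate library 4, Adcy9 joined the arcuate set under both rules, and without arcuate library 1, Rgs18 joined as the only AVPV gene (p = 0.0286 for both, exact test of 3 against 4). When the start sites of non-coding genes also competed for peaks, only Pde4d was left of the 4, and the mean number of members bound at any distance was 12 in the arcuate nucleus and 8.5 in the AVPV. With peaks held to a −log10 q of at least 5, Pde4d and Rgs3 were each left in 3 arcuate libraries and lost their calls, Pde4d also within 20 kb. With lists of equal length Pde4d (3 arcuate libraries), Rgs9 (2) and Rgs3 (1) lost them, so that of the 4 genes Prkab2 alone was left, and Plcb4 was called in the AVPV direction. Above a fold enrichment of 5, Rgs3 was lost and Plcb4 called, and within 100 kb of a start site Rgs9 was lost.

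At the level of regions the AVPV was represented. A peak in all 4 arcuate and no AVPV library was found at 3 of 79 member regions (3.80%), those of Pde4d, Prkab2 and Rgs9, beside 2.13% of all 8072 regions. The reverse was found at 2 (2.53%), those nearest to Plcb4 and Rgs18, beside 0.818%. This count was chosen after the values were seen. Of the 42 regions in at least 2 libraries, 17 (40.5%) had no AVPV peak, beside 23.1% of all regions, and 4 (9.52%) had no arcuate peak, beside 8.87%. The sets differ in make-up, since promoters held 7.14% of the member regions and 27.6% of all regions, and the arcuate lists were longer. These shares were not taken outside promoters or in lists of equal length.

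Fold enrichments depend on the depth of a library, so the 1089 regions with a peak in all 8 libraries were compared by their percentile within each list. The arcuate lists were the longer, and weak peaks at the end of a list raise the percentile of those above them. The 9 member regions had a median difference of 10.5 percentile points in favour of the arcuate nucleus, beside 1.90 for all 1089. The unadjusted test was passed by 3, all higher in the arcuate nucleus, beside 14.2% of all such regions, and none in the AVPV direction, beside 6.80%. The Camk2b region stood at 94.7 ± 1.39 in the arcuate nucleus and 77.4 ± 8.55 in the AVPV, the Rgs7 region at 88.7 ± 5.94 and 63.9 ± 17.9, and the Plcg2 region at 96.9 ± 0.565 and 88.9 ± 9.00 (SD, n = 4 each). For each of these p was 0.0286 and the adjusted p was 0.136 (exact two-sided permutation test, Benjamini-Hochberg over 1089 regions), so none passed after correction. Camk2d missed the threshold with a larger difference, 75.2 ± 9.22 against 43.7 ± 18.9 (exact permutation p = 0.0571, adjusted p = 0.204). Prkce and Prkacb differed by 0.657 and -1.03 points (exact permutation p = 0.371 and 0.914). With any arcuate library left out none of the 3 passed, at an exact p of 0.0571 for Camk2b and Rgs7 and 0.171 for Plcg2. Without AVPV library 1 Rgs7 did not pass (exact permutation p = 0.0571). In each of these cases every arcuate percentile still lay above every AVPV percentile. With groups of 3 and 4, another split of the libraries gave a mean difference at least as large. These p-values thus do not show that a result hung on the library left out.

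When all lists were cut to the 2367 strongest peaks, a comparison added after seeing the data, 888 regions were left in all 8, with 8 member regions and without that of Camk2d. Of the 8, only Camk2b 50.7 kb downstream passed, at 91.9 ± 2.2 in the arcuate nucleus and 72.8 ± 12.9 in the AVPV (SD, n = 4 each, exact permutation p = 0.0286, adjusted p = 0.127). This is 12.5% of the member regions, beside 10% of the 888 in the arcuate direction, and 12.4% of the 888 passed in the AVPV direction. Plcg2 and Rgs7 no longer passed, with differences of 7.38 and 24.5 points (exact permutation p = 0.0571 and 0.0857).

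**Figure D5:**
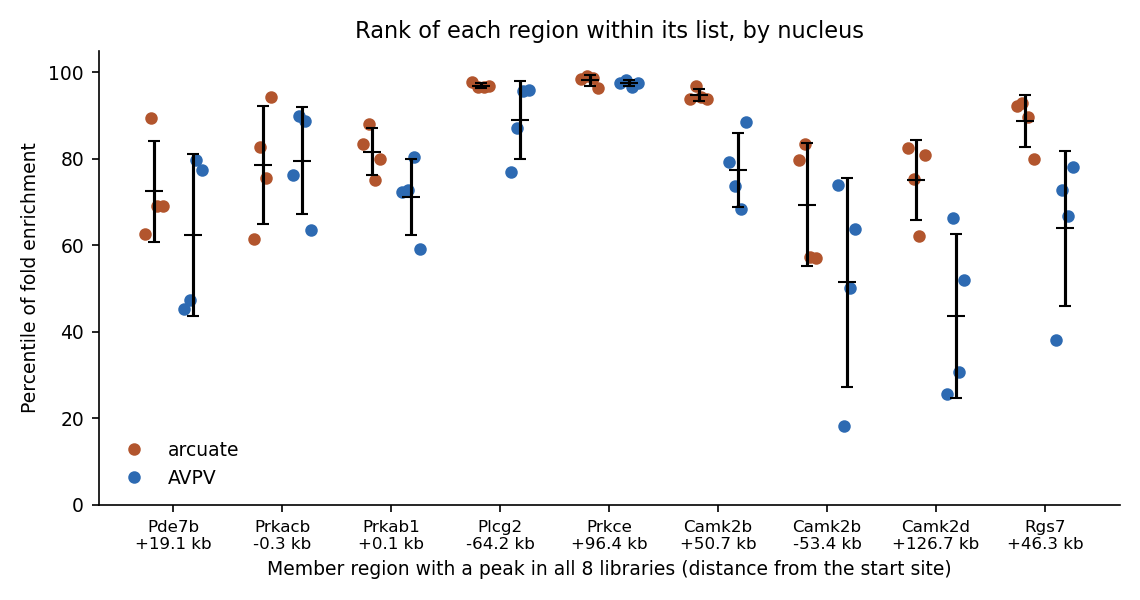
Percentile of fold enrichment within each library's list at the 9 member regions with a peak in all 8 libraries, for the arcuate (brown) and AVPV (blue) libraries, with mean ± SD of 4 libraries. The arcuate and AVPV points do not overlap for Plcg2, for the Camk2b region 50.7 kb downstream and for Rgs7, and they overlap for the other 6. Of all 1089 regions in 8 libraries, 14.2% passed the unadjusted test by rank in the arcuate direction and 6.80% in the AVPV direction. With lists cut to equal length, only this Camk2b region passed among the members.

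Assignment to the nearest start site left out regions inside members. In all, 39 regions of at least 2 libraries were centred in the body of a member, and 13 of them were nearest to the start of another gene. A region within Pde4d at chr13:109592529-109592922 was called in 1 arcuate and all 4 AVPV libraries but was nearest to Rab3c, 687 kb away, so that the arcuate call for Pde4d applies to its start and not to the whole gene. A region within Prkce at chr17:86570519-86570879 was called in all 8 libraries and counted for Epas1, and a region within Prkg1 at chr19:31082604-31083249, also in all 8, lay 0.086 kb from the start of Cstf2t, a gene inside Prkg1. Camk4, Pde4b, Prkar1b and Prkg1 had such a region in the body and none assigned.

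Of other genes of the same pathways, 99 in 10 lists were counted in the same way. At any distance 31 of them (31.3%) had a peak in at least 1 library, beside 25.5% of all genes, and 9 (9.09%) in all 8, beside 4.83%. Within 20 kb these were 18 (18.2%), beside 17.0%, and 5 (5.05%), beside 3.02%. In the arcuate direction 2 (2.02%) were called under either rule, beside 0.556% at any distance and 0.220% within 20 kb, and in the AVPV direction 1 (1.01%), beside 0.124% and 0.0735%. Ppp3r1, the regulatory subunit of the phosphatase calcineurin, and Gnb2, a Gβ subunit, were bound within 20 kb in all 8 libraries. Of 33 G-protein subunit genes, 10 (30.3%) had a peak at any distance, near the 25.5% of all genes, with Gnao1 and Gngt2 also in all 8 libraries. Of 8 genes for CREB and its relatives and coactivators, 4 (50%) had a peak, beside the same 25.5%, and Creb1 was bound in all 4 arcuate and no AVPV library under both rules. Ryr3, a calcium release channel, showed the reverse under both rules, with all 4 AVPV and no arcuate library. Akap11, an anchor of protein kinase A, within 20 kb, and Grk3, a receptor kinase, at any distance, were arcuate alone (exact two-sided p = 0.0286 and adjusted p of 1.00 for these 4 genes). Of the other release channels Itpr2 was bound in all 8 libraries at any distance, as was Dgkb of the diacylglycerol kinases. Neither of the 2 exchange factors activated by cAMP nor any of the 9 calcium pump genes had a peak.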

How the data were processed

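ERα ChIP-seq libraries (4 arcuate, 4 AVPV) were sequenced with 75-nt single-end reads. According to the submitters' processing notes, reads were aligned to mm10 with Bowtie2 2.5.0, peaks were called with MACS2 2.2.7.1 and tracks were made with deepTools 3.5; the MACS2 options are not given in the sources used here. Each library was called separately. The deposited lists hold, for each peak, a display score, a fold enrichment over background at the summit (a ratio), −log10 p and −log10 q values, and the summit's offset, all as the authors' peak caller wrote them. Read depth is not in the lists, so precision is given only as the spread over libraries and as Wilson intervals, which cover counting error. More deeply sequenced libraries generally give longer lists.

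Each peak centre was assigned to the nearest of 26873 start sites of protein-coding genes in RefSeq's annotation of GRCm38.p6, the assembly behind mm10. Start sites were those of curated mRNAs, or of predicted mRNAs for genes without a curated one. Promoter, exon and intron classes were read from curated transcripts. Beyond a chromosome end lay 0 peaks. No 2 libraries shared an identical peak. The members and lists were chosen with earlier results of these data known. Per gene, presence in 4 against 4 libraries was compared by an exact two-sided permutation test over 70 assignments, called at an unadjusted p under 0.05, with Benjamini-Hochberg values over all genes; regions in all 8 lists were compared by percentile of fold enrichment in the same way. Motif windows were 100 bp on each side of the highest summit and were read from the reference genome. Members described first were those called, bound in all 8 libraries within 20 kb, with the most regions, bound in most libraries of their subfamily, or with a response element or promoter region in several libraries; the rest are named to account for every bound member, and of the other lists only genes called or bound in all 8 libraries are named, and a few genes are not reported here. Steps ran in Python 3.11.15 with numpy 2.4.6, scipy 1.17.1 and pysam 0.24.0 and were tested on simulated data. Alternatives were other start sites, summits, stricter peaks, lists of equal length, a limit of 100 kb, left-out libraries and a replicate block. The input libraries, which have no peak list, were not used. Same-numbered arcuate and AVPV libraries were not treated as pairs.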

Additional observations from a re-analysis of the deposited data

How the results depend on the processing

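Counts of members depended on how peaks were assigned and how many were kept. With non-coding start sites competing, members bound at any distance averaged 12 in the arcuate nucleus and 8.5 in the AVPV, and 1 member and 82 of all genes were called, against 4 and 148. A 100 kb limit gave averages of 18 and 12 and no longer called Rgs9. With peaks above a fold enrichment of 5 the arcuate average was 16.5, and 5.5 within 20 kb, and Plcb4 was called in the AVPV direction in place of Rgs3. With −log10 q of at least 5, the 2 members called at any distance were Prkab2 and Rgs9, with 0 within 20 kb, where the arcuate average was 5.5. With lists of equal length the calls were 2 (Prkab2, and Plcb4 in the AVPV direction) and 0, and the arcuate averages were 14.5 and 4.75, beside AVPV averages of 14 and 4.75. The share of member regions with a response element was 61.9% at 1 mismatch. Using 1 start site per gene or the summits moved none of these counts by over 1.5 times.

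With 1 library left out, members called ranged from 4 to 5 at any distance and from 1 to 2 within 20 kb. All genes called ranged from 168 to 292 and from 75 to 127, and member regions called by rank from 0 to 4. The counts of genes could only hold or rise, since a library left out no longer had to meet the rule. With percentiles taken in lists of equal length, added after seeing the data, 1 member region was called by rank, against 3. The highest counts of all genes came without arcuate library 4, and within 20 kb the count was 102 without arcuate library 1 and 96 without AVPV library 3, against 64. Leaving out arcuate library 4 and AVPV library 3 together, an alternative chosen after seeing the data, moved each average of members bound by less than its SD. Both nuclei have replicate numbers 1 to 4, but the correlations of same-numbered libraries (0.0427, 0.00820, 0.0275 and -0.0733) do not mark them as pairs. With the number as a replicate block 0 genes were called under both rules, since the smallest p is then 0.125. The lists limit what can be shown: a site under the calling threshold is not seen, and the number of peaks differs between libraries.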
